A study of Mus musculus with 14 samples.

Results

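Levels of 10 heat shock chaperone genes were described in the cells of the mouse spinal cord in a model of amyotrophic lateral sclerosis (ALS). They were taken by symbol from the 55335 features of the deposited matrices, and all 10 were found: Hspa1a, Hspa1b, Hspa8, Hsph1, Dnajb1, Hsp90aa1, Hsp90ab1, Hspb1, Hspd1 and Hspe1. Whole spinal cords of mice aged P115-120 (postnatal days) were dissociated with enzymes at warm temperature, cleared of myelin with beads and read as 14 single-cell 3′ RNA libraries. The SOD1G93A group (3 libraries, strain B6SJL-Tg(SOD1*G93A)1Gur/J) carried the mutant human SOD1 transgene that causes motor neuron disease. The Clec7a-KO group (4 libraries, strain B6.129S6-Clec7atm1Gdb/J) lacked Clec7a, a pattern recognition receptor of myeloid cells. The SOD1G93A/Clec7a-KO group (4 libraries) had both alterations, and the nTg group (3 libraries) was non-transgenic. The named strains differ in background and the labels give no background for nTg or for the cross, so effects of genotype and of strain background cannot be told apart. The labels do not say whether libraries of a group came from separate animals, so p-values measure the spread between libraries.

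Heat shock proteins bind unfolded or partly folded proteins and return them to their folded state, hold them in solution or pass them on for degradation. Hsp70 proteins work in a cycle with J-domain proteins, which bring clients and trigger ATP hydrolysis, and with Hsp110 proteins, which exchange the nucleotide; Hsp90 takes over late-folding clients such as kinases and receptors. Under heat or proteotoxic stress the transcription factor HSF1 binds heat shock elements in their promoters and raises the inducible members within minutes, and enzymatic dissociation of tissue is known to set off the same genes. Misfolded SOD1 is a known client of this system in motor neuron disease.

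The promoters of the inducible members show what they share in sequence and position. RefSeq promoter windows of GRCm38.p6 were found for 7 of the 10 genes, as the 250 bases before each start site. Heat shock elements were searched as GAANNTTC and TTCNNGAA, each of which reads the same on both strands and may overlap the other. Either was present in 12.8% of all 32851 such windows, and among the members in windows of Hspa1a, Hspa1b, Hspb1, Hsph1, Hspd1 and Hspe1. Neither was found in the windows of Dnajb1, nor in 1 of the 2 of Hspd1, which says only that these letters are not there. The windows of the inducible Hsp70 pair and of Hspb1, the members with the largest called differences, are printed 5′ to 3′ on the strand of the gene with the matches in capitals:
Hspa1a (chr17:34972157-34972406, minus strand): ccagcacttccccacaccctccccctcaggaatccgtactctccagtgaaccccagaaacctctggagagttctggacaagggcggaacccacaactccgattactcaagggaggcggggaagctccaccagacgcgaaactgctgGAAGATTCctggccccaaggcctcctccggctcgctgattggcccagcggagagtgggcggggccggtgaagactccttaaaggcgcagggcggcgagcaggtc
Hspa1b (chr17:34959239-34959488, minus strand): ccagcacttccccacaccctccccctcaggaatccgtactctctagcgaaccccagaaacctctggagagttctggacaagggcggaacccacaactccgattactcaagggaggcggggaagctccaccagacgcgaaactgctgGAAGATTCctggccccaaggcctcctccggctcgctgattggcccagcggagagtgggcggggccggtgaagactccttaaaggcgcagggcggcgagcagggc
Hspb1 (chr5:135887669-135887918, plus strand): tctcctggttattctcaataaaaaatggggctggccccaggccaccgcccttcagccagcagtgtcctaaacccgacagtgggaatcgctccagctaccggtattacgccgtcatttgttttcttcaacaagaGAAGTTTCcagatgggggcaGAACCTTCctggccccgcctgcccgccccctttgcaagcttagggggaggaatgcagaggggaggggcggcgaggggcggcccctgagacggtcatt
Hspa1a and Hspa1b lie close together on chromosome 17 (34969190 to 34972156 and 34956436 to 34959238, GRCm38) and their windows were identical at 247 of 250 bases. The differences were C44T, T47C and T249G, counted from 1 at the 5′ end of the window with the base of Hspa1a first. Their single match began 104 bases before the start site in each.

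Hspd1 and Hspe1 encode partners, the mitochondrial chaperonin Hsp60 and its lid Hsp10. Their genes stand head to head on chromosome 1 (55077835 to 55088243 on the minus strand and 55088132 to 55091307 on the plus strand) and overlap at their 5′ ends. The matches of both genes were in the same 30 bases, which hold overlapping elements (3-unit runs of this kind were in 153 of the 32851 windows). These 30 bases lie within the annotated gene of Hspd1. The windows of Hspe1 and Hspd1 that hold them were in annotated exons at all 250 bases. Those of Hsph1 were in annotated exons at 40 and 61 bases, and its element lies within its annotated gene. The elements are shown on the strand of Hspe1 and of Hsph1:
Hspe1 (chr1:55088053-55088082, plus strand): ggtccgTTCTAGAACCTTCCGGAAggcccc
Hsph1 (chr5:149636351-149636380, minus strand): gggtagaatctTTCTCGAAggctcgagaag

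Of 108892 barcodes, 89225 cells were kept. They fell into 28 clusters, from which 9 cell classes were named by fixed markers, and 7 of the classes had enough cells for a test. These were microglia (51721 cells), endothelial cells (11297), ependymal cells (7663), astrocytes (5901), oligodendrocyte precursors (3912), mural cells (1759) and neurons (1240). Border-associated macrophages (599 cells) and T and NK cells (749) were described only, and no cluster was named mature oligodendrocytes. Another 4384 cells stayed unnamed and belong to no class. Libraries held 28819852 to 141204910 unique molecular identifiers (UMIs, counts of captured RNA molecules), and shared at most 0.474% of the barcodes of the smaller library. Clec7a in microglia agreed in every library with its label, at 35.5 to 916 CPM (UMIs of the gene per 1000000 UMIs) in the libraries with the gene and 0.965 to 3.00 CPM in those labelled Clec7a-KO, though a 3′ tag can lie outside a deleted stretch. Levels are CPM of UMIs summed over the cells of 1 class in 1 library, with library sizes adjusted by TMM factors, and are compared between cells or groups for 1 gene at a time.

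Each chaperone had its own order of cell classes (medians over libraries, given without a test because classes were defined from the same cells). The inducible Hsp70 gene Hspa1a was highest in vascular cells and border macrophages, with 1411 CPM in endothelial cells, 1173 in border-associated macrophages and 701 in mural cells. Astrocytes and oligodendrocyte precursors were lowest at 20.6 and 18.7 CPM. Endothelial cells exceeded border-associated macrophages in only 6 of 12 libraries, so these neighbours did not differ beyond their spread, while microglia (191 CPM) exceeded astrocytes in 14 of 14. The microglial median lay between groups that stood apart: Hspa1a was at 58.2 to 147 CPM in transgenic and 235 to 1031 in other microglia, and Hspa1b at 16.8 to 65.2 and 86.9 to 624. Hspa1b ran from 1036 CPM in endothelial cells to 7.86 in oligodendrocyte precursors, with medians of 860.0 in T and NK cells and 623 in border-associated macrophages, although the former exceeded the latter in only 1 of the 9 libraries with both. Hspb1, the small heat shock protein Hsp27 that holds unfolded proteins and stabilises actin, was at 2769 CPM in endothelial cells and 1589 in mural cells, against 23.8 in microglia. Astrocytes took the next place for Hspb1 with a median of 494 CPM, but this median lay between groups that stood far apart, from 18.5 to 2419 CPM. These orders leave out the unnamed cells, most of them in cluster 16 (4118 cells). Its medians were 2085 CPM for Hspb1 and 1083 for Hspa1a, without TMM factors.

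Ependymal cells, the ciliated lining of the central canal, had the highest median of 5 members. Hsp90aa1, the inducible cytosolic Hsp90, was at 6117 CPM in ependymal cells and 2486 in neurons, in that order in 13 of 13 libraries, and at 322 CPM in astrocytes. Its constitutive counterpart Hsp90ab1 was at 4943 CPM in ependymal cells against 770 in astrocytes. Hsph1, the Hsp110 exchange factor, was at 544 CPM in ependymal cells and lowest in microglia at 40.1. Hspd1 and Hspe1 were at 336 and 563 CPM in ependymal cells, but for Hspe1 only 4 of 10 libraries had ependymal cells above T and NK cells. Hspa8, the constitutive Hsp70, ran from 1912 CPM in T and NK cells to 621 in astrocytes, with microglia (1145) next to oligodendrocyte precursors (1134), which they exceeded in 10 of 14 libraries. Dnajb1, the J-domain partner of inducible Hsp70, was the member with its highest median in microglia (266 CPM), next to T and NK cells (262), which it exceeded in only 2 of 10 libraries, and it was at 21.5 in astrocytes. The microglial median lay between the transgenic (147 to 227 CPM) and the other libraries (305 to 612), and the T and NK libraries were 7 transgenic and 3 Clec7a-KO, so this order depends on the mix of groups.

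**Figure D1:**
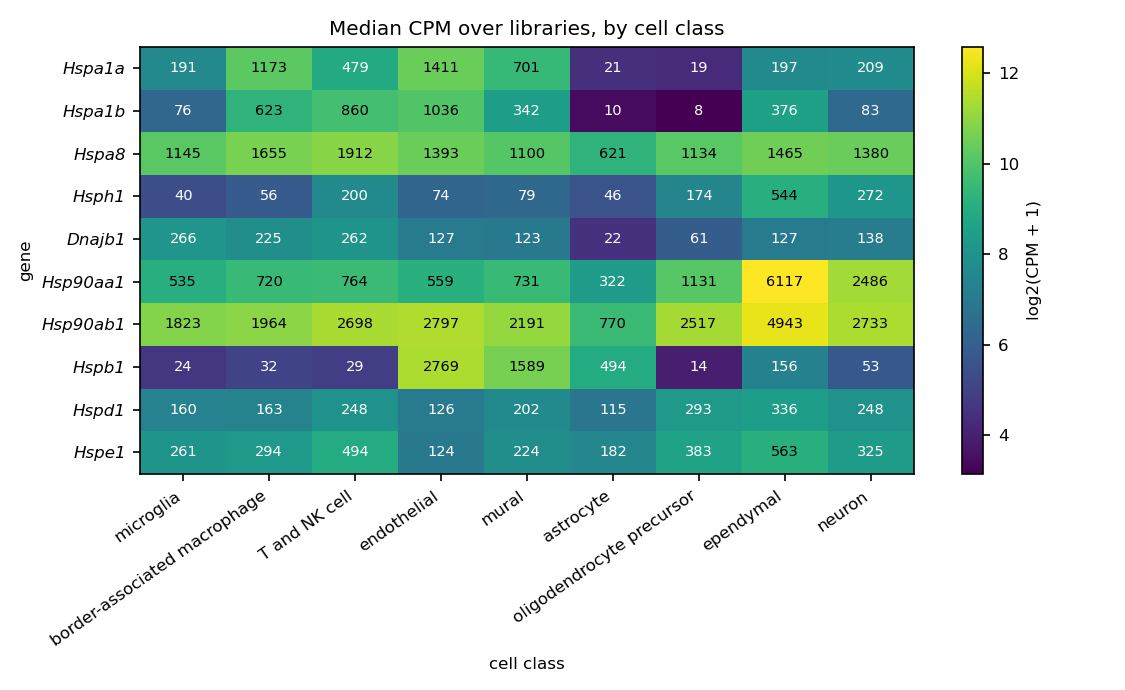
Heat map of the median CPM over libraries of each chaperone (rows) in 9 cell classes (columns), with the median printed in each cell and the colour giving log2(CPM + 1). Endothelial and mural cells had the highest medians of Hspb1 (2769 and 1589 CPM), and ependymal cells those of Hsp90aa1, Hsp90ab1 and Hsph1; levels compare within a row.

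In microglia, the resident macrophages of the cord, the inducible Hsp70 pair and its J-domain partner Dnajb1 were lower and the mitochondrial pair Hspd1 and Hspe1 higher in transgenic libraries. Averaged over the Clec7a states (the mean transgene effect), Hspa1a was 4.71-fold lower, Hspa1b 6.10-fold lower and Dnajb1 2.22-fold lower, while Hspd1 and Hspe1 were 1.65-fold and 1.76-fold higher and Hsp90ab1 1.41-fold higher, relative to all genes. In all, 6 of 10 members passed the test (3 higher, 3 lower; edgeR quasi-likelihood, Benjamini-Hochberg adjusted p under 0.05), where 56.7% of the 16661 genes tested did, so the number called is near the background and the sizes and directions of single genes are what is described. The median log2 difference of the members was -0.21 against 0.00 for all genes. The rises depend on the scaling: with library sizes taken as total UMIs, a scaling added after seeing the data, the median of all genes moved from 0.00 to -0.48, and 20.1% in place of 53.0% of called genes were higher (13.5% of all genes higher and 53.9% lower). On that scale Hspe1 still passed, at 0.33 (adjusted p = 0.0471), and Hspd1 at 0.25 (adjusted p = 0.0679) and Hsp90ab1 at 0.02 (adjusted p = 0.924) did not, whereas the falls of Hspa1a, Hspa1b and Dnajb1 were at -2.71, -3.09 and -1.63 (highest adjusted p = 4.61e-06). Hsp90aa1 (-0.97, adjusted p = 0.00173), Hsph1 (-0.71, adjusted p = 0.0389) and Hspa8 (-0.46, adjusted p = 0.0299) were also called lower with total UMIs.

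Hspa1a stood at 239, 458 and 235 CPM in the nTg libraries and 404, 794, 318 and 1031 in Clec7a-KO, against 69.3, 133 and 147 in SOD1G93A and 58.2, 66.7, 92.8 and 89.7 in SOD1G93A/Clec7a-KO. Every transgenic library lay below every non-transgenic one. The mean transgene effect was -2.23 on the log2 scale (SE 0.29, adjusted p = 1.49e-05), with -1.42 for SOD1G93A minus nTg (adjusted p = 0.0190) and -3.05 for SOD1G93A/Clec7a-KO minus Clec7a-KO (adjusted p = 2.61e-05). The share of microglia with an Hspa1a UMI, after each cell was thinned to 1000 UMIs, was 18.3% to 25.1% in nTg, 21.1% to 41.4% in Clec7a-KO, 6.04% to 9.495% in SOD1G93A and 4.70% to 6.15% in SOD1G93A/Clec7a-KO. Unthinned shares were 56.3% to 74.9% in non-transgenic and 18.04% to 46.8% in transgenic libraries, and the thinned share in astrocytes, where Hspa1a is scarce, was 0% to 3.77% (median depths 5291.5 to 21807 UMIs per microglial cell and 2364.5 to 6725 per astrocyte).

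Hspa1b, whose coding part is nearly the same as that of Hspa1a and whose 3′ end shared no 90-base stretch with another gene, repeated the order. It was at 86.9, 198 and 98.3 CPM in nTg and 255, 443, 130 and 624 in Clec7a-KO, against 21.0, 51.7 and 65.2 in SOD1G93A and 18.5, 16.8, 32.9 and 40.5 in SOD1G93A/Clec7a-KO. No transgenic library reached the lowest non-transgenic one. The effect was -2.61 (SE 0.38, adjusted p = 4.41e-05) on average and -3.75 (13.4-fold lower, adjusted p = 5.18e-05) with Clec7a absent, and with Clec7a present -1.47 did not pass (adjusted p = 0.0510; -1.93 and 0.00844 with total UMIs).

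Dnajb1 was at 363, 388 and 340 CPM in nTg and 323, 385, 305 and 612 in Clec7a-KO, against 171, 181 and 147 in SOD1G93A and 150, 155, 190 and 227 in SOD1G93A/Clec7a-KO. The transgenic and non-transgenic libraries did not overlap, with 227 and 305 CPM as their nearest values. Its log2 difference was -1.13 (adjusted p = 0.00270) in the presence of Clec7a and -1.17 (adjusted p = 0.000451) in its absence.

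Hspa8, the housekeeping Hsp70, ranged over 1042 to 1957 CPM in the 7 transgenic libraries and 908 to 2289 in the 7 others, and the groups overlapped throughout. Its effect was 0.02 (95% interval -0.38 to 0.41, adjusted p = 0.946), and -0.46 (adjusted p = 0.0299) with total UMIs as library sizes. Hsph1 ranged over 19.1 to 60.01 CPM in transgenic and 25.1 to 94.0 in other libraries, with an effect of -0.23 (adjusted p = 0.504), and -0.71 (adjusted p = 0.0389) with total UMIs. Of the 4 Hsp70 and Hsp110 members, the inducible pair was called with TMM factors and all 4 were called lower with total UMIs.

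Of the cytosolic Hsp90 genes, Hsp90aa1 was at 612, 658 and 523 CPM in nTg, 663, 1059, 548 and 412 in Clec7a-KO, 461, 589 and 603 in SOD1G93A and 448, 496, 268 and 271 in SOD1G93A/Clec7a-KO. The lowest values were those of SOD1G93A/Clec7a-KO libraries 3 and 4. With Clec7a absent it fell by 0.85 (adjusted p = 0.0193), and the mean effect of -0.49 did not pass (adjusted p = 0.0581). With total UMIs these were -1.38 (adjusted p = 0.00152) and -0.97 (adjusted p = 0.00173). Hsp90ab1 was at 1495, 1385 and 1168 CPM in nTg and 1681, 1777, 1075 and 1824 in Clec7a-KO, against 2225, 1875 and 1928 in SOD1G93A and 2042, 2766, 1837 and 1821 in SOD1G93A/Clec7a-KO. With TMM factors the SOD1G93A libraries were all above nTg, while those without Clec7a overlapped by a narrow margin. Without these factors SOD1G93A and nTg overlapped. Its mean effect was 0.49 (SE 0.15, adjusted p = 0.0114), and neither single contrast passed (adjusted p = 0.0642 and 0.0949).

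These 2 SOD1G93A/Clec7a-KO libraries and, for Hsp90aa1, Clec7a-KO library 4 were low in several classes. Library 4 was among the 2 lowest of all libraries for Hsp90aa1 in 6 of 6 classes and for Hsph1 in 6 of 6, and library 3 in 5 and 6 of 7. Clec7a-KO library 4 was among the 2 lowest for Hsp90aa1 in 2 of 7 classes (225 CPM in astrocytes and 1158 in neurons) and next above them in microglia. These 3 libraries have the numbers 13, 15 and 16 in their library names. With that number as a covariate, the mean effect of Hsp90aa1 was -0.70 (adjusted p = 0.00155) in microglia, a call, and 0.32 (adjusted p = 0.0602) in astrocytes, where its call was lost. Clec7a-KO library 2 was highest for Hsph1 in 6 of 7 classes. SOD1G93A library 1 was the lowest for Hspe1 in 5 of 7 classes. These counts describe libraries over classes, and were not tested.

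Hspd1, the chaperonin that folds proteins imported into mitochondria, was at 106, 101 and 92.2 CPM in nTg and 108, 149, 84.9 and 154 in Clec7a-KO, against 179, 187 and 194 in SOD1G93A and 167, 192, 173 and 196 in SOD1G93A/Clec7a-KO. With TMM factors all 7 transgenic libraries were above all 7 others, and without these factors the groups overlapped. The log2 difference was 0.90 (adjusted p = 0.00255) with Clec7a and 0.55 (adjusted p = 0.0136) without, and 0.73 (SE 0.13, adjusted p = 0.000228) on average. Hspe1, its lid, was at 165, 200 and 187 CPM in nTg and 212, 256, 176 and 265 in Clec7a-KO, against 187, 374 and 391 in SOD1G93A and 371, 431, 431 and 412 in SOD1G93A/Clec7a-KO. SOD1G93A library 1 lay within the range of nTg and the other 6 transgenic libraries above every non-transgenic one. The mean effect was 0.82 (SE 0.16, adjusted p = 0.000503). With total UMIs as library sizes the rise with Clec7a present was 0.45 (adjusted p = 0.047) for Hspd1 and 0.32 (adjusted p = 0.222) for Hspe1, and without Clec7a 0.04 (adjusted p = 0.818) and 0.34 (adjusted p = 0.122).

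Hspb1 was scarce in microglia, at 20.0, 20.3 and 11.5 CPM in nTg, 28.4, 50.7, 14.6 and 84.5 in Clec7a-KO, 23.9, 24.4 and 32.2 in SOD1G93A and 20.3, 28.1, 16.8 and 23.6 in SOD1G93A/Clec7a-KO. Its effect of -1.003 with Clec7a absent passed (adjusted p = 0.0456) but was -0.50 (adjusted p = 0.215) without Clec7a-KO library 4. The call was also lost without SOD1G93A library 2 or 3, SOD1G93A/Clec7a-KO library 1, 3 or 4, nTg library 1 or 2 or Clec7a-KO library 2 (adjusted p = 0.0550 to 0.0967), and the mean effect was -0.19 (adjusted p = 0.606). With total UMIs the mean effect was -0.65 (adjusted p = 0.0508).

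**Figure D2:**
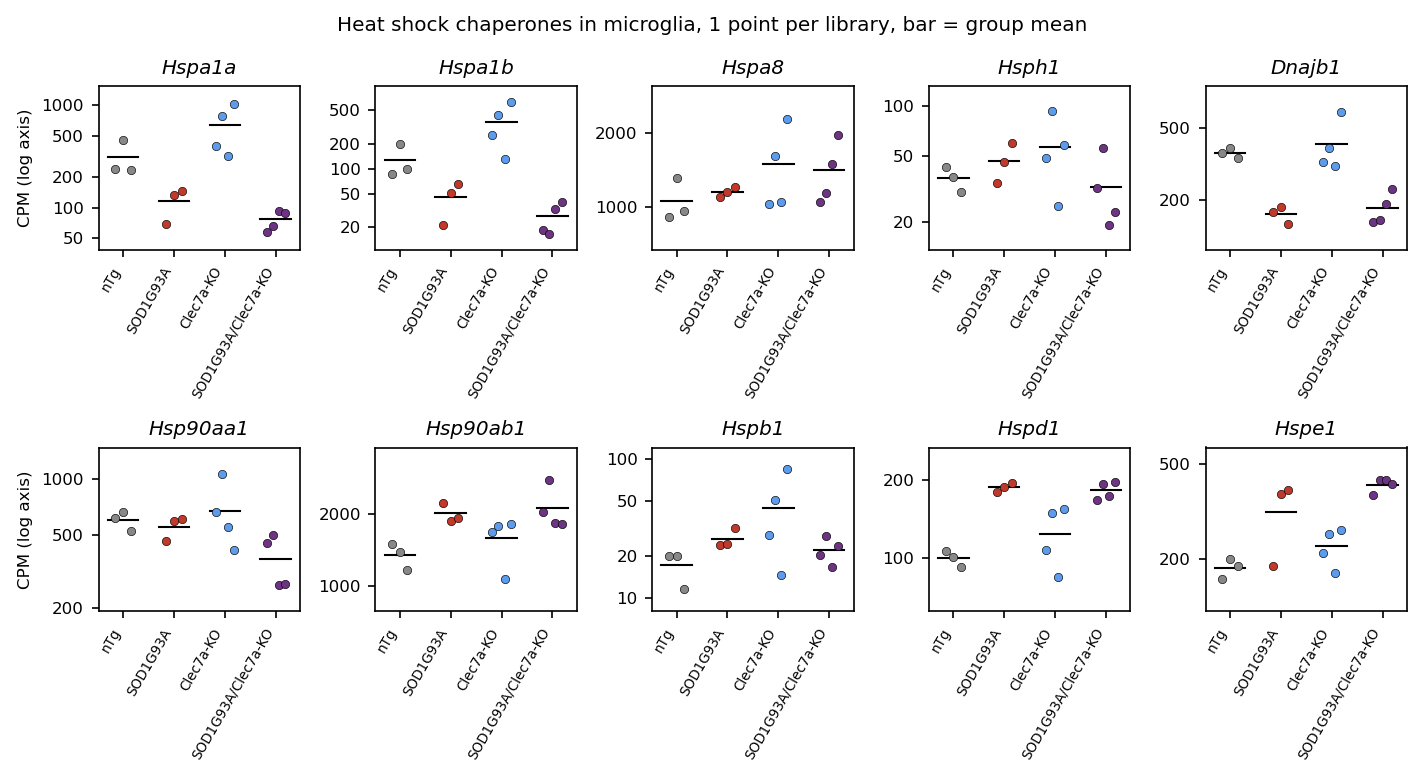
CPM of the 10 chaperones in microglia on log axes, 1 point per library, the bar being the group mean. For Hspa1a, Hspa1b and Dnajb1 all transgenic libraries lay below all non-transgenic ones, and for Hspd1 above them. The latter is relative to all genes: total-UMI scaling reduced that difference to 0.25, and without TMM factors the libraries overlapped.

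By contrast, 4 of 10 members passed in SOD1G93A minus nTg, where 32.5% of genes did, and 7 of 10 in SOD1G93A/Clec7a-KO minus Clec7a-KO, where 46.4% did. Leaving out single libraries ended some of the former calls. That of Hspa1a was lost without SOD1G93A library 1 (adjusted p = 0.0619) or nTg library 2 (adjusted p = 0.105), and that of Hspe1 without SOD1G93A library 2 or 3 or nTg library 1 or 3. Of the latter, that of Hsp90aa1 was lost without Clec7a-KO library 2 (-0.55, adjusted p = 0.0874). The 6 calls of the mean effect were kept whichever library was left out.

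Loss of Clec7a was not associated with a called change of any member in microglia. None of 10 passed with edgeR in SOD1G93A/Clec7a-KO minus SOD1G93A (0.018% of genes did), Clec7a-KO minus nTg (0.024%) or the interaction (0%), and DESeq2 called 0 in each. At an unadjusted p under 0.05 in edgeR there were 0, 3 and 3 members. The share of all genes at that threshold is not given here, so nothing is read from those counts. Hspa1a was 1.04 higher on the log2 scale in Clec7a-KO than in nTg (95% interval 0.26 to 1.81, adjusted p = 1), Hspa1b 1.51 (0.49 to 2.53) and Hspb1 1.36 (0.51 to 2.20). Between the transgenic groups Hspa1a differed by -0.60 (-1.35 to 0.16). The transgene contrast of Hspa1a was 1.63 lower without Clec7a than with it (interval -2.71 to -0.55) and that of Hspa1b 2.27 lower, with adjusted p = 1.00 for each.

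Transgenic and non-transgenic microglia came from different clusters. Clusters 0 to 6, led by genes such as Spp1, Lpl, Cst7, Gpnmb, Il1b and C1qa, held 84.8% to 95.1% of the microglia of each transgenic library and 2.56% to 7.54% of those of the others. Clusters 9 and 13, led by the resting-state genes P2ry12 and Tmem119, held 81.3% to 89.2% of non-transgenic and 0.772% to 8.55% of transgenic microglia. The summed level of the 12 microglial markers overlapped between groups (28688 to 38186 CPM in transgenic and 29204 to 34497 in other libraries). Of 15 marker lists of other cell types, 2 were higher and 5 lower in all transgenic microglia than in all others. The 8 markers of border-associated macrophages summed to 38.4 to 90.4 CPM in transgenic libraries and 1.304 to 3.30 in the others, where 2 of the 8 were at 0 in nTg and 1 in Clec7a-KO. Those of oligodendrocyte precursors summed to 22.3 to 64.3 and 3.93 to 13.2 CPM. The lower lists were those of B cells (70.2 to 135 against 180.0 to 235 CPM), astrocytes (69.5 to 156 against 159 to 379), mural cells, neurons and Schwann cells (each at most 40.8 CPM), and the part of these lists in the chaperone differences was not tested. Clusters 2, 5 and 11 had more markers of another class than of microglia among their leading genes. Without these 3 clusters, an alternative chosen after seeing the data, 6 members passed for the mean effect (54.2% of genes did), with Hspa1a at -2.13, Hspa1b at -2.47, Dnajb1 at -1.08, Hspd1 at 0.67, Hspe1 at 0.80 and Hsp90ab1 at 0.46, and in SOD1G93A/Clec7a-KO minus Clec7a-KO the call of Hspb1 was lost (-0.94, adjusted p = 0.0585).

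Within cluster 9, which held at least 20 cells of each of the 14 libraries, most differences were smaller. Plain CPM of Hspa1a were 340, 340 and 590 in nTg, 465.9 to 1163 in Clec7a-KO, 305, 661 and 838 in SOD1G93A and 188 to 276 in SOD1G93A/Clec7a-KO. SOD1G93A microglia of this cluster thus overlapped those of nTg, with a fitted difference of 0.54 (adjusted p = 0.677), while SOD1G93A/Clec7a-KO lay below every other library. The latter was called against Clec7a-KO (-1.68, adjusted p = 0.0166), the only one of the 10 members that passed in that contrast, where 1.75% of genes did. In the edgeR fit of this cluster alone, added after seeing the data, 0 of 10 passed for SOD1G93A minus nTg (0.469% of genes) or for the mean effect (5.79% of genes). The mean effects there were -0.57 (SE 0.26) for Hspa1a, -0.64 (SE 0.34) for Hspa1b, -0.32 (SE 0.18) for Dnajb1, 0.19 (SE 0.14) for Hspd1 and 0.29 (SE 0.17) for Hspe1, each nearer to 0 than in the whole class. Without Clec7a, Hspd1 was at -0.21 (adjusted p = 0.644) in this cluster. In cluster 1, led by complement genes, Dnajb1 was at 300 to 318 CPM in nTg and 282 to 518 in 3 Clec7a-KO libraries, against 139 to 183 in SOD1G93A and 131 to 157 in SOD1G93A/Clec7a-KO, without overlap, and Hspd1 at 153 to 165, 127 to 159, 130 to 154 and 112 to 129. Hspd1 thus overlapped but had lower medians in the transgenic groups of this cluster (138 against 163 CPM, and 122 against 148 without Clec7a). These are plain CPM without TMM factors. In the whole class the mean effect on Hspd1 had the opposite direction, at 0.25 with total UMIs as library sizes (edgeR adjusted p = 0.0679). In cluster 5, led by Gpnmb and found in transgenic libraries, Hspa1a was at 20.2 to 100 CPM in SOD1G93A and 24.96 to 49.3 in SOD1G93A/Clec7a-KO. Cells were clustered with these genes in the data, so levels by cluster are descriptions.

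**Figure D3:**
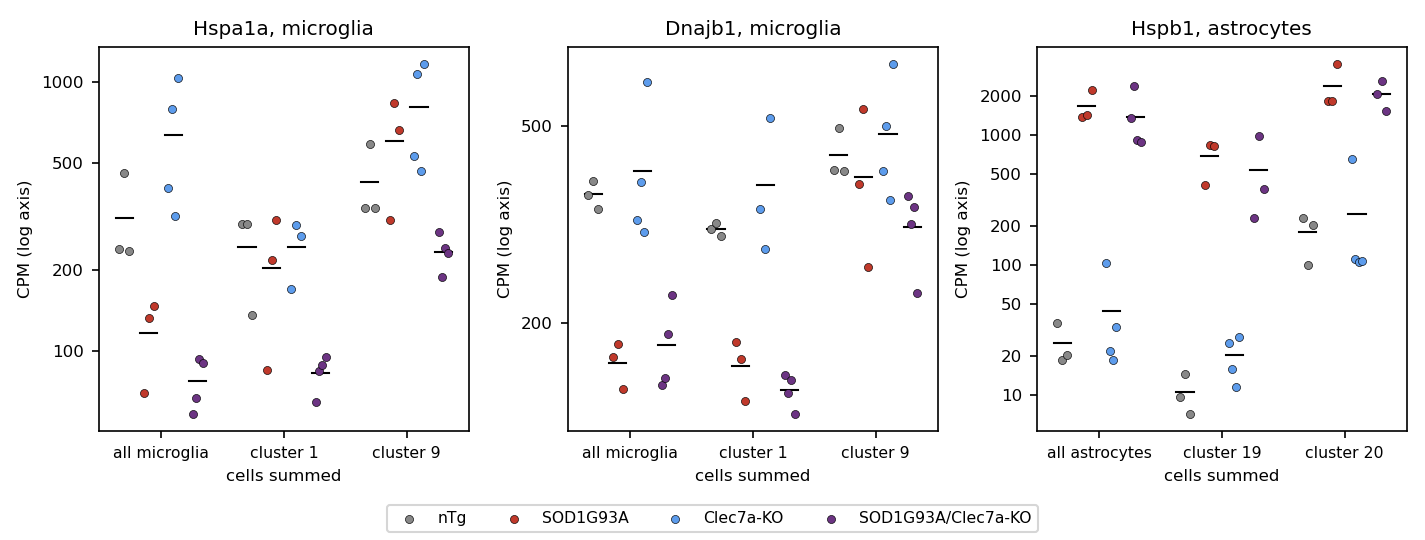
CPM on log axes of Hspa1a and Dnajb1 in microglia and of Hspb1 in astrocytes, 1 point per library with at least 20 such cells, bar = group mean; values of a single cluster carry no TMM factor. In cluster 9 SOD1G93A and nTg overlapped for Hspa1a, in cluster 1 Dnajb1 was lower in all transgenic libraries, and in both astrocyte clusters Hspb1 was higher in all transgenic libraries.

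A list of 22 genes, taken from earlier work on these data and so not independent of them, was read beside the members. They are genes that dissociation is known to induce, such as the immediate early genes Fos, Jun and Egr1, with no chaperone among them. In microglia 13 were called lower and 3 higher for the mean effect (0 higher and 18 lower with total UMIs as library sizes), and their mean level was 9.71 (log2 CPM) in SOD1G93A, 9.69 in SOD1G93A/Clec7a-KO, 10.21 in nTg and 10.37 in Clec7a-KO. Across the 14 libraries, with group means removed, their level correlated with Hspa1a (Pearson r = 0.74, Spearman rho = 0.65, adjusted permutation p = 0.00760 for r and 0.0488 for rho), Hspa1b (r = 0.74, rho = 0.76), Hspa8 (r = 0.81, rho = 0.75), Dnajb1 (r = 0.74, rho = 0.63) and Hspe1 (r = 0.57, rho = 0.60). For 5 of 10 members the adjusted p of r was under 0.05, and for 0 with CPM free of TMM factors (lowest adjusted p = 0.167). By rho, Hspe1 did not pass (adjusted permutation p = 0.0533). The permutations moved libraries between groups after the group means were removed, so these p-values can be too small. The relation was computed for the members alone, so the share of all genes that would pass is not known. Without the 2 libraries with the most extreme levels, r was 0.69 for Hspa1a, 0.64 for Hspa1b, 0.62 for Hspa8, 0.47 for Dnajb1 and 0.63 for Hspe1. The level of the list did not overlap between transgenic (9.53 to 9.95) and other libraries (10.08 to 10.62). A fit with this level as a covariate thus compares the groups at levels that they do not share, and cannot tell transgene and list level apart. With the level of the list as a covariate, the mean effect was -0.70 (adjusted p = 0.246) for Hspa1a and -0.38 (adjusted p = 0.268) for Dnajb1. In that fit 3 of 10 members passed, Hspa8 (1.14), Hspd1 (1.11) and Hspe1 (1.39), where 31.8% of genes did. The part of dissociation in the differences between groups was not tested beyond these values.

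In astrocytes, which support neurons and take up glutamate, Hspb1 was the member that differed most of all, and in the other direction to the microglial Hsp70 genes. It was at 35.9, 18.5 and 20.3 CPM in nTg and 104, 21.98, 18.6 and 33.6 in Clec7a-KO, against 1389, 1433 and 2242 in SOD1G93A and 1359, 2419, 914 and 885 in SOD1G93A/Clec7a-KO. The lowest transgenic library lay far above the highest non-transgenic one. The difference was 67.7-fold for SOD1G93A minus nTg (log2 6.08, SE 0.64, adjusted p = 1.03e-05), 30.4-fold for SOD1G93A/Clec7a-KO minus Clec7a-KO (log2 4.93, SE 0.53, adjusted p = 1.10e-05) and 45.4-fold on average (log2 5.50, SE 0.42, adjusted p = 8.21e-08). After thinning to 1000 UMIs, 32.9% to 57.3% of astrocytes of transgenic libraries had an Hspb1 UMI and 1.23% to 4.61% of the others, where microglia of all groups, in which Hspb1 is scarce, had 1.10% to 4.93%. Unthinned shares were 44.4% to 79.3% and 5.56% to 12.9% in astrocytes. Stretches of 90 bases at its 3′ end were shared with the pseudogene Hsp25-ps1 (34.9%), so reads within them cannot be told apart by sequence. Hsp25-ps1 was at 0 to 11.3 CPM in astrocytes and 0.0926 to 0.555 in microglia, without TMM factors. Such shared stretches made up 60.6% for Hspa8, 36.0% for Hspe1, 18.7% for Hsp90aa1, 18.6% for Hspd1 and 0% for the other members.

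Hspb1 was also higher within each astrocyte cluster. In cluster 19, which held 86.6% to 92.6% of non-transgenic and 32.9% to 56.7% of transgenic astrocytes, it was at 7.15 to 28.2 CPM in the non-transgenic libraries and 232 to 998 in the transgenic ones with at least 20 cells. In cluster 20 it was at 101 to 661 and 1535 to 3520 CPM. The fitted log2 difference was 5.47 in cluster 19 alone and 3.50 in cluster 20 alone, both of them alternatives chosen after seeing the data.

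**Figure D4:**
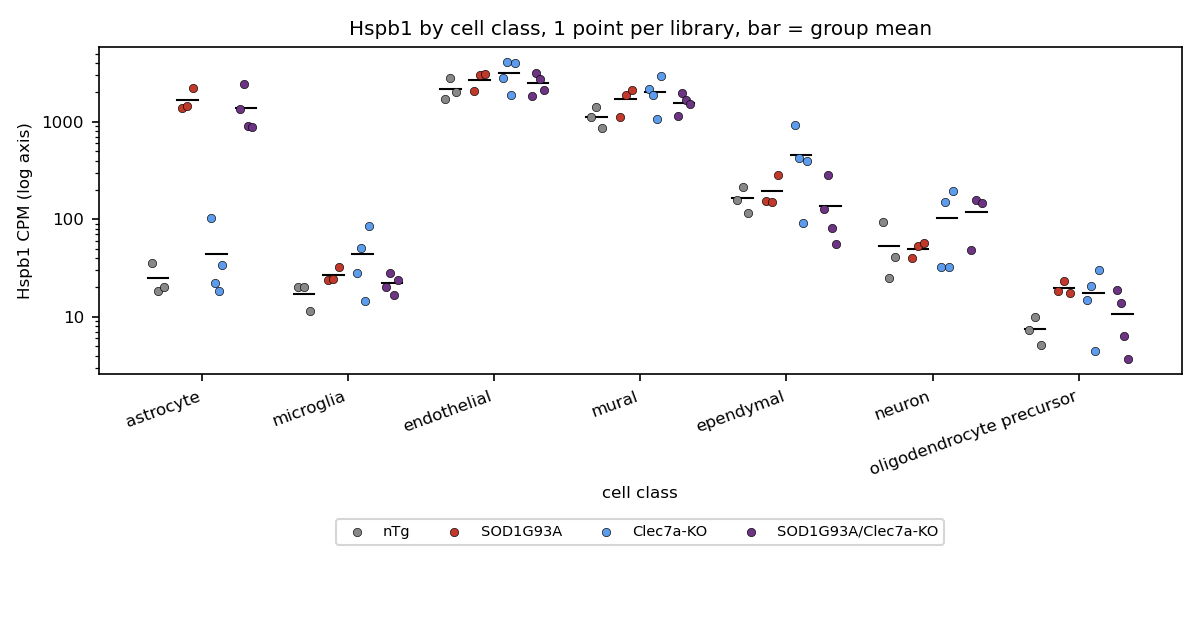
CPM of Hspb1 on a log axis in the 7 classes tested, 1 point per library, bar = group mean. Transgenic astrocytes sat at 885 to 2419 CPM, above the 18.5 to 104 CPM of non-transgenic ones, while transgenic and non-transgenic libraries overlapped in every other class.

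Of the other 9 members, 5 rose less in astrocytes and 4 (Hspa1a, Hspa1b, Hspa8 and Hsph1) did not pass. For the mean effect 6 of 10 passed, all higher, where 50.4% of the 13013 genes tested passed and 25.9% were called higher, and the members' median was 0.50 against -0.02 for all genes. Besides Hspb1 these were Dnajb1 (1.22, adjusted p = 0.00412), Hspe1 (0.61, adjusted p = 0.00130), Hsp90aa1 (0.57, adjusted p = 0.0151), Hsp90ab1 (0.54, adjusted p = 0.0225) and Hspd1 (0.46, adjusted p = 0.0118). Dnajb1 was at 9.92 to 20.9 CPM in nTg, 12.01 to 39.4 in Clec7a-KO, 22.1 to 71.9 in SOD1G93A and 19.7 to 70.2 in SOD1G93A/Clec7a-KO, and the last 2 groups overlapped with Clec7a-KO. Hsp90aa1 was at 257 to 289 CPM in nTg and 451 to 592 in SOD1G93A, but at 225 to 367 and 223 to 502 in the groups without Clec7a, whose difference of 0.22 did not pass (adjusted p = 0.508). Hspe1 was at 154 to 181 CPM in Clec7a-KO and 245 to 302 in SOD1G93A/Clec7a-KO. Hspa1a was at 0 to 41.1 CPM over all libraries, with a mean effect of 0.36 (adjusted p = 0.409).

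Microglial markers and dissociation genes were higher on average in transgenic astrocytes, with overlap between libraries. The summed level of all 12 microglial markers in astrocytes was 252 to 563 CPM in nTg, 566 to 2212 in Clec7a-KO, 1306 to 12607 in SOD1G93A and 3241 to 12409 in SOD1G93A/Clec7a-KO, with none of the 12 at 0 in any group, beside 11792 to 19489 for the astrocyte markers. Mural markers, of a class high in Hspb1, summed to 48.2 to 141 CPM in non-transgenic and 152 to 349 in transgenic libraries, and endothelial markers to 49.7 to 195 and 31.8 to 312. Ependymal markers were also without overlap, at 57.1 to 83.2 CPM in non-transgenic and 96.5 to 297 in transgenic libraries, and those of neurons (108 to 201 and 38.3 to 89.7) and fibroblasts (162 to 205 and 76.6 to 159) were lower. Of the 22 dissociation genes 21 were called higher in transgenic astrocytes and 0 lower, and their mean level was 5.69 to 7.96 (log2 CPM) in SOD1G93A, 6.44 to 7.81 in SOD1G93A/Clec7a-KO, 4.19 to 5.14 in nTg and 4.84 to 6.33 in Clec7a-KO. SOD1G93A library 3 had the lowest transgenic values of both measures (1306 CPM and 5.69) and the highest Hspb1 of its group (2242 CPM). In SOD1G93A/Clec7a-KO the dissociation levels of libraries 1 to 4 (7.59, 7.81, 6.58 and 6.44) had the order of their Hspb1 (1359, 2419, 914 and 885 CPM). In Clec7a-KO 6.33, 5.26, 4.84 and 5.91 likewise had that of 104, 21.98, 18.6 and 33.6 CPM. In SOD1G93A the order was the reverse and in nTg neither, and none of these relations was tested. With the microglial marker level or the dissociation level as a covariate only Hspb1 was called of the 10 members, at 4.69 in the former and 4.90 in the latter, where 11.7% and 14.4% of genes were called. Hspb1 in microglia was at 11.5 to 84.5 CPM. The part of other cell types and of dissociation in the differences of the 6 members called in astrocytes was not tested apart from those fits.

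Among the single contrasts in astrocytes, 4 of 10 members passed with Clec7a present (Hspe1, Hspb1, Dnajb1 and Hsp90aa1; 34.7% of genes did) and 2 with Clec7a absent (Hspe1 and Hspb1; 31.9% of genes). With Clec7a present, the call of Hspe1 was lost without SOD1G93A library 2 or 3, nTg library 1 or 3 or Clec7a-KO library 1 or 2 and with total UMIs as library sizes (0.50, adjusted p = 0.0778), that of Dnajb1 without SOD1G93A library 1 (0.87) or nTg library 1 or 3, and that of Hsp90aa1 without SOD1G93A library 3 or nTg library 2 or 3. The mean effect of Hsp90ab1 did not pass without SOD1G93A library 1 (adjusted p = 0.0581) or nTg library 2 (adjusted p = 0.0508). The calls of Hspb1 passed whichever library was left out. With the level of Xist as a covariate, the mean effects of Dnajb1 (0.56, adjusted p = 0.242), Hsp90aa1 (0.43, adjusted p = 0.171), Hsp90ab1 (0.35, adjusted p = 0.259) and Hspd1 (0.42, adjusted p = 0.107) did not pass, while Hspe1, Hspb1 and Hspa1b (-1.19, adjusted p = 0.0126) did, where 32.4% of genes did.

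No member was called for the mean effect in the other 5 classes with edgeR or DESeq2, where 2.36% of genes were called in endothelial cells, 3.13% in ependymal cells, 0.345% in mural cells, 1.53% in neurons and 11.5% in oligodendrocyte precursors. At an unadjusted p under 0.05 there were 0, 1, 0, 1 and 1 members. At that threshold there were 1686 of 13153, 2716 of 15298, 578 of 7544, 1423 of 11988 and 3469 of 13240 genes. In endothelial cells, with the highest levels of the inducible Hsp70 genes, Hspa1a ran from 678 to 3352 CPM in non-transgenic and from 909 to 3029 in transgenic libraries, and its effect was 0.04 (95% interval -0.66 to 0.75). Hspb1 in endothelial cells was at 1693 to 4109 and 1841 to 3148 CPM, with an effect of -0.02 (-0.41 to 0.37). The largest difference in neurons was that of Hspa1b, at -1.20 (SE 0.45, adjusted p = 0.296), from a fit without SOD1G93A/Clec7a-KO library 4, which had 7 neurons. Ependymal Hspb1 was at 90.7 to 922 CPM in the non-transgenic and 56.4 to 286 in the transgenic libraries, with an effect of -0.68 (interval -1.43 to 0.08), and the Clec7a-KO libraries spread over that whole range. Without the filter on low counts, 4 members passed in ependymal cells (Hspe1, Hspb1, Hspa1b and Hspa1a) and 2 in neurons (Hspa1b and Hspa1a). The shares of genes given above belong to the filtered fits. No share is given here for the unfiltered ones, so nothing is read from these 2 counts.

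**Figure D5:**
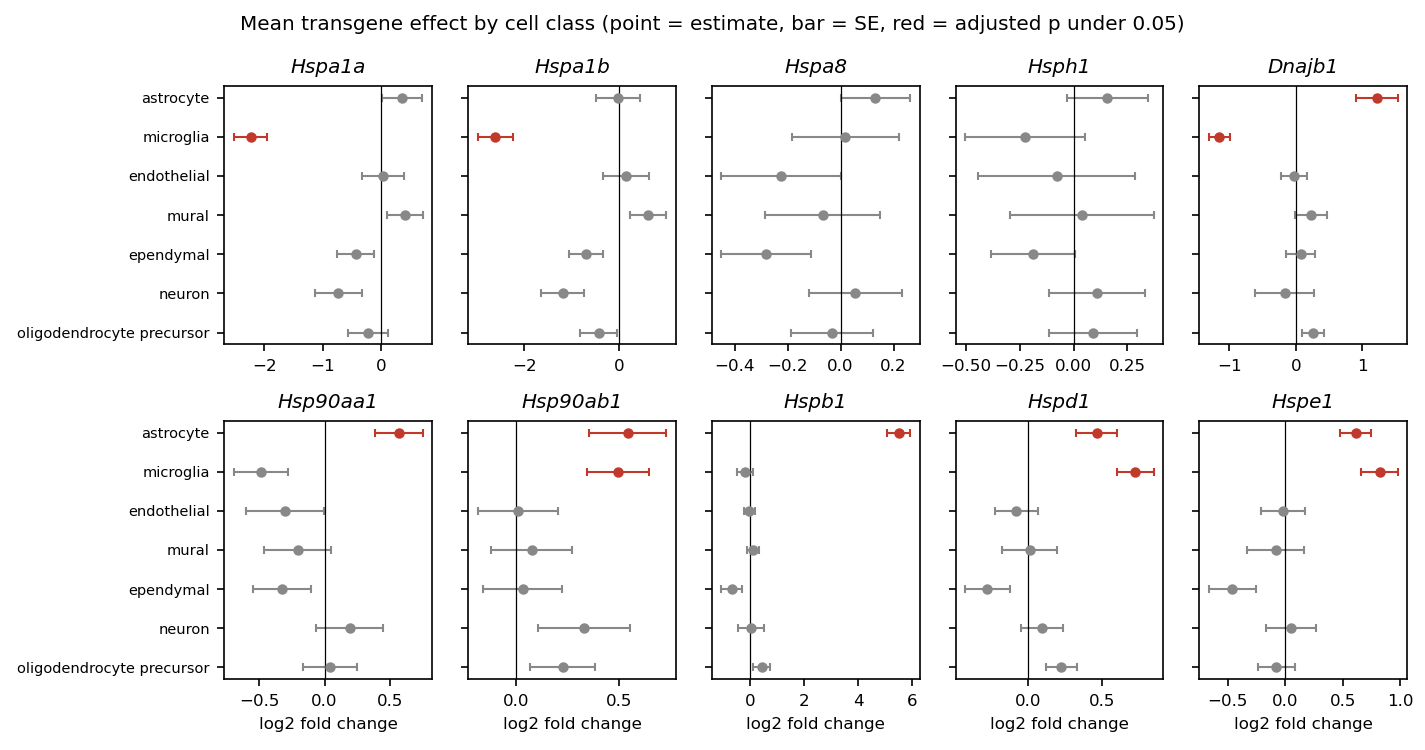
Mean transgene effect (log2 fold change with its standard error) of each chaperone in the 7 classes tested, red where the adjusted p was under 0.05. Calls were made in microglia and astrocytes alone, from -2.61 for Hspa1b in microglia to 5.50 for Hspb1 in astrocytes; the positive microglial values are relative to all genes.

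The transgene effect on the members was also set against that in microglia for each of the other 6 classes. In each library the log2 level of the class was set against that of microglia, and transgenic and other libraries were compared with an exact two-sided permutation test within each Clec7a state (smallest p possible 0.00143, or 0.00286 for neurons). Of 60 tests of 10 members in 6 classes, 34 passed after adjustment, and 45 with CPM free of TMM factors. The test was run on the members alone, so the share of all genes that would pass is not known. For the mean effect 56.7% of genes were called in microglia, 50.4% in astrocytes and 0.345% to 11.5% in the other 5 classes. The 6 tests of a member also reuse its microglial values, so they are not separate findings. The effect on Hspa1a was 1.55 to 2.59 higher than in microglia in all 6 classes (adjusted p = 0.00451 to 0.0378). The effect on Dnajb1 was higher in 5 classes, by 1.12 to 2.17, and the effect on Hspb1 differed in astrocytes (5.65, adjusted p = 0.00451) and in none of the other 5.

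The remaining genes of the chaperone network were read from 79 symbols in 8 lists, 78 of which were tested in microglia. For the mean effect 40 were called higher and 11 lower (18 and 32 with total UMIs as library sizes), beside 30% and 26.7% of all genes (13.5% and 53.9%). The cytosolic chaperonin TRiC, which folds actin and tubulin, and its feeder prefoldin had 11 of 14 genes higher and 0 lower (6 and 2 with total UMIs), among them Tcp1 at 0.94. J-domain genes were divided, 6 of 16 higher and 6 lower, with Dnajb14 at 1.26, Dnajb4 at -1.29 and Dnajb9, an endoplasmic reticulum member, at -0.92. Of the Hsp70 exchange and handover factors 5 of 10 were higher and 0 lower (3 and 3 with total UMIs). They were led by Bag1 at 1.26 and the ubiquitin ligase Stub1 at 0.94. Of the Hsp90 relatives and co-chaperones 5 of 12 were higher and 0 lower. The Hsp70 relatives Hspa1l and Hspa12b were lower, at -1.64 and -1.01, as 3 of 11 in that list, with 6 higher. Small heat shock proteins had 3 of 6 higher and 0 lower (1 and 1 with total UMIs), mitochondrial partners 3 of 5 and 1 (2 and 2), and heat shock factors 1 of 4 and 1. The largest of these values, 2.67 for Hsf4 and 2.54 for Hspb7, belonged to genes under 2 CPM in microglia. The 10 named here were called in the same direction with total UMIs as library sizes, although the balance of list counts turned in the Hsp70 relatives (1 higher, 5 lower) and the Hsp90 list (2 and 5), and went from even to mostly lower in the heat shock factors (1 and 3) and the J-domain genes (2 and 11).

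In astrocytes 25 of 72 pathway genes were higher and 4 lower (24 and 4 with total UMIs), beside 25.9% and 24.5% of all genes (23.9% and 27%). The small heat shock proteins, holders of unfolded proteins like Hspb1, had 4 of 4 tested genes higher: Hspb6 at 2.86, Hspb8 at 1.79 and Cryab, the alpha B crystallin, at 2.41 were the largest. Fkbp5, an Hsp90 co-chaperone induced by glucocorticoids, was at 1.63. Astrocyte genes are named by the rank of the microglial rule, a choice made after their values were seen. TRiC and prefoldin had 10 of 14 higher and 0 lower, with Pfdn1 at 1.08. Bag3, the partner of small heat shock proteins in selective autophagy, was at 1.11 and Hspa5, the Hsp70 of the endoplasmic reticulum, at 0.97. The heat shock factors had 0 higher and 1 lower of 2 tested. No member was called in astrocytes for loss of Clec7a or the interaction either, with edgeR or DESeq2. At an unadjusted p under 0.05 with edgeR there were 0, 3 and 0 members for SOD1G93A/Clec7a-KO minus SOD1G93A, Clec7a-KO minus nTg and the interaction. Those counts again stand without the share of all genes at that threshold. None of the 78 pathway genes in microglia and none of the 72 in astrocytes was called for either loss of Clec7a or the interaction, where 0.00768% of genes were called in astrocytes for SOD1G93A/Clec7a-KO minus SOD1G93A and 0% in the other 2.

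Across the 14 libraries, with group means removed, each member was set against 16660 other genes in microglia by Pearson r of log2 CPM, given without a p. Hspa1a was most like Hspa1b (r = 0.96), then Dnajb11 (0.94) and Tmem33 (0.93). Hspb1 and Hspd1 were each other's nearest gene (0.95). Dnajb1 was nearest to Plekhf2 (0.97), Hspa8 to Znrf1 (0.97), Hsp90aa1 to Slc39a10 (0.97), Hspe1 to Zfp599 (0.92) and Hsph1 to 1700065D16Rik (0.90), with Chordc1, an Hsp90 co-chaperone, among its 3 nearest genes (0.87). Hsp90ab1 was nearest to Tspan5 (0.94), followed by Ahsa1 (0.92), the activator of Hsp90 ATPase. These libraries differ in depth and dissociation level, which all the points share.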

How the data were processed

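Sparse matrices of UMI counts per gene and cell barcode were deposited by the authors for 14 libraries of 10x 3′ single-cell RNA. They name Cell Ranger, Seurat, DESeq2 and the build mm10 in the submitters' processing notes, and the matrix software version is 3.0.2 per the file headers; further steps are not given in the sources used here. A barcode was kept from 500 genes and 1000 UMIs upward if mitochondrial UMIs made up no more than 15%, and simulated-doublet scores were used to remove 0.8% of barcodes per 1000 barcodes in a library. Cells were clustered (scanpy 1.11.5, 2000 variable genes, 30 components, 15 neighbours, Leiden resolution 1) and clusters named from fixed markers. UMIs were summed per library and class (at least 20 cells) and fitted with edgeR 4.0.16 (R 4.3.3; quasi-likelihood, TMM factors, filterByExpr, 1 term per group, Benjamini-Hochberg over all genes of a class). All p-values of fold changes are from that fit unless another test is named, and 95% intervals are the estimate plus or minus 1.96 standard errors. The script was tested on simulated data. All 10 members were named; of 79 pathway genes, those called with the 10 largest mean transgene effects in microglia; and for likeness the 3 nearest genes. Members, gene lists (the dissociation list comes from earlier work on these data) and tests were chosen with earlier results of these data known. Alternatives were DESeq2 1.42.0, other scalings and filters, other cell limits and resolutions, covariates, a replicate block, and leaving out each library.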

Additional observations from a re-analysis of the deposited data

Results flagged for a closer look

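The transgene effect was tested as a difference between each of 6 classes and microglia in the same library (exact permutation test, adjusted over 60 tests, 14 libraries or 13 for neurons). It differed for 8 members. The share of all genes that would differ is not known, as the test was run on the members alone. For Hspa1a the effect differed in 6 classes, by 1.55 to 2.59 on the log2 scale, and was more negative in microglia. For Hspa1b and Dnajb1 it differed in 5 classes each, by 1.73 to 2.90 and by 1.12 to 2.17. For Hsp90aa1 it differed in 3 classes (astrocytes, neurons and oligodendrocyte precursors; 0.48 to 0.99), and for Hspb1 in 1, astrocytes (5.65).

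The opposite direction, a more positive effect in microglia, was found for Hsp90ab1 in 4 classes (-0.50 to -0.29), for Hspd1 in 5 classes (-1.03 to -0.52) and for Hspe1 in 5 classes (-1.30 to -0.80). The sizes of these last 3 depend on the scaling. Without TMM factors Hspd1 and Hspe1 still passed in endothelial cells, at -0.31 and -0.35 (adjusted permutation p = 0.0039 each). Hsp90ab1 did not pass there, at -0.01 (adjusted permutation p = 0.956). In astrocytes Hsp90ab1 (0.41, adjusted permutation p = 0.0143) and Hspe1 (0.24, adjusted permutation p = 0.0327) then passed in the other direction. With CPM free of TMM factors the differences over the 6 classes ran from -0.05 to 0.41 for Hsp90ab1, from -0.60 to 0.10 for Hspd1 and from -0.86 to 0.24 for Hspe1, while those of Hspa1a ran from 1.94 to 3.06.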

How the results depend on the processing

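Of 978 alternative values of 37 gene results, 851 kept their direction and side of the threshold, 106 lost the call, 11 gained one and 10 reversed; a further 28 values that were not called in either fit changed sign. Cluster 9 alone, chosen after seeing the data, gave 0, 1 and 0 called members in microglia for SOD1G93A minus nTg, SOD1G93A/Clec7a-KO minus Clec7a-KO and the mean effect (4, 7 and 6 in the whole class), with fewer cells, and reversed Hspa1a (0.54 for SOD1G93A minus nTg) and Hspd1 (-0.21 for SOD1G93A/Clec7a-KO minus Clec7a-KO). The dissociation covariate gave 3 and 3 for the last 2 of those contrasts and reversed Hspb1 in microglia (0.24). Its microglial level did not overlap between transgenic and other libraries, and the cause was not tested. Hspa8 reversed to -0.46 in microglia with total UMIs. In the classes other than microglia, 6 members were called, all in astrocytes. The number was 12 with no filter on low counts, 3 with Xist as a covariate (Hspe1, Hspb1 and Hspa1b in astrocytes) and 2 with the dissociation covariate (Hspb1 in astrocytes and Hspa1b in neurons). It was 1 each with astrocyte cluster 19 only, with astrocyte cluster 20 only and with the microglial marker covariate. In astrocytes 32.4% of genes were called with the Xist, 14.4% with the dissociation and 11.7% with the microglial marker covariate. Shares for the other settings, and for fits leaving out 1 library, are not given here, so nothing is read from those counts. The cause of these changes was not tested. The dissociation and microglial marker covariates reversed Dnajb1 in astrocytes (-0.71 and -0.82 for SOD1G93A minus nTg, -0.55 and -0.75 for the mean effect) and Hsp90ab1 (-0.10 and -0.23). The relation to dissociation genes passed for 0 members in place of 5 without TMM factors. Leaving out 1 library gave 3 to 6, 5 to 8 and 6 to 7 calls for the 3 transgene contrasts in microglia, 0 to 0 for the others, and 5 to 6 in the other classes.

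A replicate block gave 6, 8 and 7 calls for the 3 transgene contrasts in microglia, 0 for the others and 6 in the other classes. With it Hsp90aa1 was called for the mean effect (-0.46, adjusted p = 0.0126). The share of all genes called under the block is not given here, so nothing is read from these counts. The replicate numbers are not known to pair libraries: 9 of 19 same-numbered pairs correlated above 0.1 (range -0.17 to 0.39), and 7 of 14 libraries correlated best with their own number. Thinning to 2000 UMIs moved the mean share of microglia with an Hspa1a UMI to 13.05% in SOD1G93A, 9.07% in SOD1G93A/Clec7a-KO, 33.0% in nTg and 43.9% in Clec7a-KO, in the same order. Each group held 3 or 4 libraries, and the neuron fit left out SOD1G93A/Clec7a-KO library 4, with 7 cells.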

Other observations

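In oligodendrocyte precursors, where none of the 10 members was called, 7 of 72 other chaperone genes were called for the mean transgene effect (11.5% of all genes were): Hspb6 at 1.28, Bag1 at 0.72, Tcp1 at 0.43, Cct2 at 0.36 and Cct5 at 0.32 were higher, and Dnajb4 at -0.52 and Dnajb9 at -0.46 lower. The choice of this class was made with its values in view.

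Border-associated macrophages and T and NK cells were described without a test. In libraries with at least 20 border-associated macrophages, Hspa1a was at 1296, 1601 and 1387 CPM in SOD1G93A and 923, 897, 2033 and 2552 in SOD1G93A/Clec7a-KO, against 1050 and 750.0 in 2 nTg libraries and 1008, 1020 and 3702 in 3 Clec7a-KO libraries. The SOD1G93A libraries were above both nTg libraries, and SOD1G93A/Clec7a-KO overlapped with Clec7a-KO. T and NK cells numbered at least 20 in 10 libraries and 1 to 18 in the nTg libraries, which gave no level. Hspa1a in them was at 286 to 1724 CPM in SOD1G93A, 221 to 1082 in SOD1G93A/Clec7a-KO and 274 to 921 in Clec7a-KO.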
